A study of Mus musculus with 2 samples.

Results

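The Reg genes encode small secreted C-type lectins, and 5 of them were examined here in the small intestine: Reg1, Reg3a, Reg3b, Reg3g and Reg4. They were taken as every row of the deposited gene list that carries 1 of these symbols, which gave 5 of 32285 genes. Single-cell RNA-Seq had been made from Tomato+ epithelial cells sorted from whole small intestine after the pancreas was taken off, pooled per library from 4 to 5 mice aged 4 to 6 weeks. The WT library came from Neurog3Cre; Rosa26tdtomato mice, in which Cre follows the promoter of Neurog3, the gene that starts endocrine differentiation, and so marks the descendants of cells that expressed it. The library labelled NFKO came from Neurog3Cre-FoxO1 f/f; Rosa26tdtomato mice, so both groups carry the Cre and the reporter and differ in the floxed FoxO1 alleles. Each group is 1 library. Differences therefore have no replicate check and carry no p, and each interval below is a 95% interval for counting error alone.

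Reg3b and Reg3g are antibacterial lectins that epithelial cells release into the mucus. Their transcription is known to rise with IL-22, which acts through STAT3, and with bacterial signals through Myd88. Reg3a belongs to the same subgroup. Reg1 was first described in the pancreas and is also made in the upper small intestine, while Reg4 is known as a product of enteroendocrine cells and of deep crypt secretory cells.

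By GENCODE M21 on GRCm38, 6 Reg genes lie within 98216 bases of chromosome 6, all annotated as protein coding. Reg3b (ENSMUSG00000071356) spans 78370657 to 78373466 and Reg3a (ENSMUSG00000079516) 78380709 to 78383827, both on the plus strand. Reg1 (ENSMUSG00000059654), also on the plus strand, spans 78422711 to 78428667, and Reg3g (ENSMUSG00000030017), on the minus strand, 78466269 to 78468872. Reg3d and Reg2, which lie among them, had 14 and 4 UMIs in WT and 19 and 0 in the library labelled NFKO, and are not described further. Reg4 (ENSMUSG00000027876) stands apart on the plus strand of chromosome 3, at 98222156 to 98236748.

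The bases just before the RefSeq start sites of Reg3a, Reg3b, Reg3g and Reg4 are shown because the first 3 had nearly the same pattern over cell types and Reg4 had another. They are RefSeq windows on GRCm38.p6, which matched 5 of 5 members, and 150 bases up to the start site are printed 5′ to 3′ on the strand of the gene. Capitals mark TATAAA, TTCNNNGAA, the letters of a STAT site, and GTAAACA, those of a FoxO site, each searched on both strands. No match overlapped another. GENCODE has a further Reg3b isoform that starts at 78370657, so the 150 bases shown for Reg3b lie inside its annotated gene and the last 24 are in a GENCODE exon. Those of Reg3a, Reg3g and Reg4 lie outside theirs.
Reg3a, chr6:78380559-78380708, plus strand: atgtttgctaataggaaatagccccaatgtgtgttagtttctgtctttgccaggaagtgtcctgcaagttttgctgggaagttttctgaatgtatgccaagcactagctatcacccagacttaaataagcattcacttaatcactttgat
Reg3b, chr6:78370735-78370884, plus strand: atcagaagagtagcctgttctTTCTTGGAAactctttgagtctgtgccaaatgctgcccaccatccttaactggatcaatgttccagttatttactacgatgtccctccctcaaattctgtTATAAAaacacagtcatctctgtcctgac
Reg3g, chr6:78468875-78469024, minus strand: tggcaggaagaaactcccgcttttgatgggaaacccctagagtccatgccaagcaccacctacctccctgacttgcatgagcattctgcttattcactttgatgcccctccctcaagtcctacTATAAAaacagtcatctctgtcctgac
Reg4, chr3:98222006-98222155, plus strand: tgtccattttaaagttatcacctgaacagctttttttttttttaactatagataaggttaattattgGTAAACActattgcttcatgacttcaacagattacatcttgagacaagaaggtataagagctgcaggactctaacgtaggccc

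TATAAA began 29 bases before the start of Reg3b, 27 before that of Reg3g and 30 before that of Reg1, whose stretch is not printed because 53 of its bases are in a GENCODE exon. On the opposite strand it was also found 161 bases before the start of Reg3g, outside the stretch shown, and at base 36 after the start of Reg1. The same 6 letters stood in 13.6% of all 32851 windows of 300 bases. TTCNNNGAA was found once among the 5 windows, 129 bases before the start of Reg3b, and is present in 8.30% of all windows. GTAAACA was likewise found once, 83 bases before the start of Reg4, against 3.65% of all windows. These are matches of letters and not sites. The windows of Reg3b and Reg3g were identical over 69.9% of aligned bases and shared an unbroken run of 29 bases that begins 20 bases before the start. Reg3a matched Reg3g over 72.5% and Reg3b over 68.3%, while the window of Reg4 matched those of the 3 Reg3 genes over 49.6% to 52.8%. In their longest coding transcripts Reg3b and Reg3g agreed over 72.8% of aligned bases, and their longest shared run was 35 bases, the longest of any pair in the family. How reads from such a run were assigned is not given in the sources used here, so a small exchange of counts between these genes cannot be told apart from their own levels.

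From 5051 WT barcodes and 7540 barcodes of the library labelled NFKO, 3003 and 5292 cells were kept, with 78722460 and 111249836 UMIs. A UMI, or unique molecular identifier, marks 1 captured transcript molecule. Foxo1 had 910 UMIs in WT and 1381 in the second library, and its level differed by a factor of 1.07 (0.987 to 1.17) after scaling to depth. Among the classes named below, the ratio was 0.305 (0.151 to 0.616) in tuft-like cells, from 18 and 19 UMIs. It was 0.534 (0.369 to 0.783) in cycling-like and 0.772 (0.650 to 0.920) in other enteroendocrine-like cells. Stem-like cells had 1.39 (1.13 to 1.72), and the intervals of the other classes included equality. The paper reports reduced FoxO1 expression in sorted Tomato+ cells of NFKO mice. Over all kept cells a lower Foxo1 level was not seen. The single-cell method counts the ends of transcripts, which does not show whether the floxed part is deleted. NFKO is therefore used here only as a label. The libraries stood apart in other ways too: the heat shock gene Hspa1a was at 294 and 23.1 UMIs per 1000000, and cells typed by Y-linked genes and Xist were 2424 male and 6 female in WT against 357 male and 4359 female in the library labelled NFKO. Cells with a Y-linked UMI and no Xist UMI were typed male, and the reverse female. A further 550 and 491 cells were untyped, and 23 and 85 had UMIs of both kinds. Sex and label cannot be told apart over all cells, and values for male-typed cells are given beside the ratios that they change. The libraries shared 4 kept barcodes. Epcam, the epithelial surface gene, was at 1185 and 1307 UMIs per 1000000 and Ptprc, the pan-leukocyte gene, at 1.60 and 0.827.

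Cells were clustered without the Reg genes, so that the classes do not depend on them, and each cluster was named from markers. The classes (WT, then the library labelled NFKO) were enterocyte-like, with 253 and 353 cells, goblet-like, with 912 and 1786, Paneth-like, with 265 and 243, stem-like, with 304 and 209, and cycling-like, with 102 and 289. Tuft-like cells numbered 89 and 174, enterochromaffin-like cells, the serotonin-making endocrine type, 252 and 605, endocrine progenitor-like cells 197 and 368, and other enteroendocrine-like cells 545 and 907. Levels are given in CPM, counts per 1000000 UMIs of a class. Genes are not compared with each other in level.

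**Figure D1:**
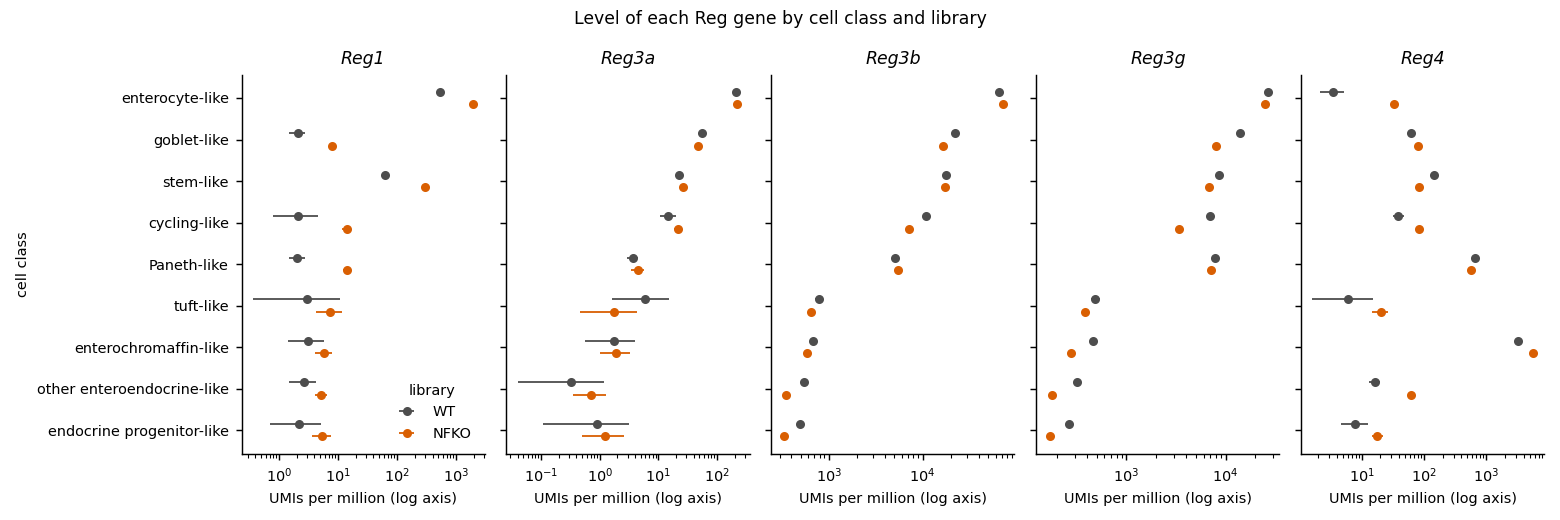
Level of each Reg gene in 9 cell classes, in UMIs per 1000000 on log axes that differ between panels. Points are the WT (grey) and NFKO-labelled (orange) libraries, and bars are exact Poisson 95% intervals. Reg3a, Reg3b and Reg3g fall off from enterocyte-like to endocrine cells, Reg1 is high in enterocyte-like and stem-like cells, and Reg4 in enterochromaffin-like and Paneth-like cells.

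Reg3b, the first of the antibacterial lectins, had its highest level in enterocyte-like cells. It made up 6.46% of their UMIs in WT and 7.26% under the NFKO label, and in single cells up to 16.2% and 20.9%. The level was 64566 CPM in WT enterocyte-like cells and 72644 CPM in those labelled NFKO. Goblet-like cells had 22398 and 16636 CPM, stem-like cells 17958 and 17487 CPM. Cycling-like cells followed with 10786 and 7209 CPM and Paneth-like cells with 5069 and 5508 CPM. The order of these 5 classes was the same in both libraries except that goblet-like cells stood above stem-like cells in WT and below them in the library labelled NFKO. Goblet-like cells held 35.6% and 41.0% of all Reg3b UMIs, being the more numerous class, and enterocyte-like cells 31.7% and 35.0%.

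Tuft-like and all endocrine classes lay far below, between 336 and 787 CPM. Immune-like cells, which should lack the gene and numbered 16 and 4, had 804 CPM (613 to 1035) in WT and 264 CPM (96.8 to 574) in the other library. When each cell was thinned to 2000 UMIs, 52.9% to 76.8% of tuft-like and 45.2% to 59.9% of endocrine cells had a Reg3b UMI, against 11 of 15 and 2 of 4 immune-like cells. The median depth before thinning was 4468 and 4770.5 UMIs in immune-like cells, 12136 and 17333 in other enteroendocrine-like cells. In WT the tuft-like and endocrine levels lay within or under the interval of immune-like cells. They were not spread evenly over cells. The 3 top WT enterochromaffin-like cells held 37.1% of the Reg3b UMIs of their class, against 18.3% to 23.8% in tuft-like and the other endocrine classes. The highest WT enterochromaffin-like cell gave 1.54% of its UMIs to Reg3b, while the median cell was at 340 CPM. Whether the WT levels are background was not tested. In the library labelled NFKO tuft-like cells, at 648 CPM, lay above the interval of 4 immune-like cells and enterochromaffin-like cells, at 586 CPM (568 to 604), reached its upper bound, and background and low expression cannot be told apart there. In other enteroendocrine-like cells 1000 Reg3b UMIs went with 4.81 Reg1 UMIs in WT and 14.6 under the NFKO label. These were near the 3.44 and 12 of the whole libraries, whereas goblet-like cells had 0.0933 and 0.481. Reg3a had 0.601 and 2.01 per 1000 Reg3b UMIs in other enteroendocrine-like cells, against 2.31 and 2.63 of the whole libraries. These rest on 2 and 11 Reg3a UMIs. Reg4 had 30.05 and 178 there, against 20.8 and 36.4. Not every member thus kept the proportion of the whole libraries.

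Reg3g, the close relative of Reg3b, had the same leading class but another place for Paneth-like cells, the crypt-base cells that secrete defensins and lysozyme. Its level was 26938 CPM in WT and 24911 CPM in NFKO-labelled enterocyte-like cells, and 13915 and 8019 CPM in goblet-like cells. Paneth-like cells had 7848 and 7083 CPM, stem-like cells 8556 and 6749 CPM, so these neighbours changed places between the libraries, with intervals that did not overlap in either. Cycling-like cells had 6907 and 3401 CPM. In the tuft-like and endocrine classes the level was between 171 and 487 CPM, against 509 CPM (360 to 699) and 220 CPM (71.4 to 513) in immune-like cells. In WT these levels lay within or under the interval of immune-like cells. The 3 top WT enterochromaffin-like cells held 37.6% of the Reg3g UMIs of their class. Whether the WT levels are background was not tested for Reg3g either. In the library labelled NFKO the interval rests on 5 Reg3g UMIs of 4 immune-like cells, and background and low expression cannot be told apart.

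Within a cell the pair went together. At 2000 UMIs both genes were seen in 250 of 251 WT and in 310 of 310 NFKO-labelled enterocyte-like cells, and their counts ranked alike over these cells, with Spearman's rho of 0.92 and 0.89. Over goblet-like cells rho was 0.78 and 0.73. Paneth-like cells had a looser relation, with rho of 0.55 and 0.35: 28 and 36 of them had Reg3g without Reg3b, and 0 and 3 had Reg3b without Reg3g. Cells of a library share its free RNA and the 2 genes are part of the same total, so these values describe the libraries and carry no test.

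**Figure D2:**
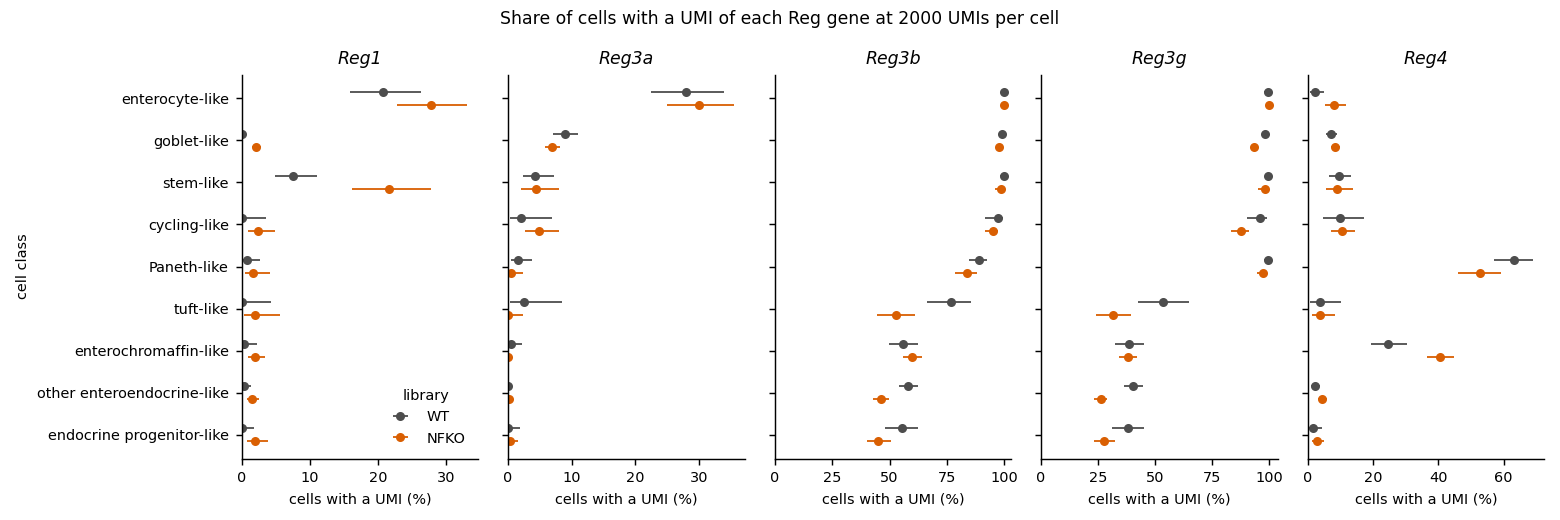
Percent of cells with at least 1 UMI of each Reg gene after thinning every cell to 2000 UMIs, by class, with exact binomial 95% intervals. WT is grey and the library labelled NFKO orange. Nearly all enterocyte-like, goblet-like and stem-like cells had Reg3b and Reg3g, while Reg1, Reg3a and Reg4 were seen in a minority of most classes.

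The number of Reg3b UMIs per Reg3g UMI does not depend on depth, and it set the classes apart. It was 2.40 in WT and 2.92 in NFKO-labelled enterocyte-like cells, 2.10 and 2.59 in stem-like, 1.61 and 2.07 in goblet-like and 1.56 and 2.12 in cycling-like cells. In Paneth-like cells it was 0.646 (0.641 to 0.651) and 0.778 (0.771 to 0.785), the single class of the 9 in which Reg3g UMIs outnumbered Reg3b UMIs. This came from cluster 9, led by defensin genes, with 0.548 in WT and 0.562 in the other library. Cluster 16, the Paneth-like cells led by Rnase1, Retnlb and Mmp7, had 1.03 and 1.77.

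The ratio was higher in the library labelled NFKO in each of these 5 classes. In the tuft-like and endocrine classes, where both genes were low, it was 1.46 to 1.89 in WT and 1.71 to 2.11 under the NFKO label, around the 1.66 and 2.15 of the whole libraries. Of the 11 enterocyte-like, stem-like, goblet-like, cycling-like and Paneth-like clusters, goblet-like cluster 3 was the exception, with 1.62 and 1.61. It had 584 WT cells but 25 of the library labelled NFKO. Among male-typed cells the ratio was 2.40 in 163 WT and 3.03 in 24 NFKO-labelled enterocyte-like cells, and 1.59 and 2.11 in goblet-like cells. Female-typed cells of the library labelled NFKO had 2.88 and 2.07, near the male-typed cells of the same library. Paneth-like cells differed: male-typed cells had 0.655 in WT and 1.31 (1.27 to 1.35) under the NFKO label, the latter from 12 cells. Female-typed Paneth-like cells of the library labelled NFKO had 0.782. Reg3g UMIs thus did not outnumber Reg3b UMIs in those 12 cells.

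**Figure D3:**
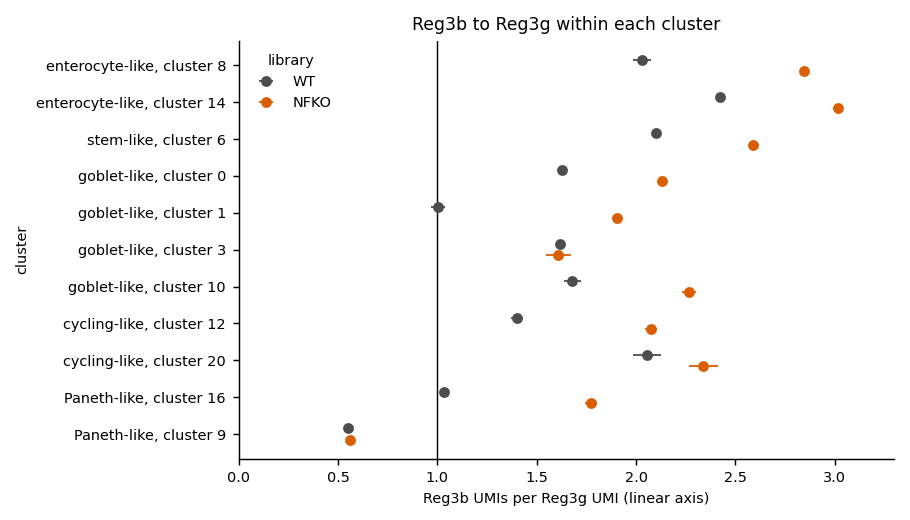
Reg3b UMIs per Reg3g UMI in 11 clusters of enterocyte-like, stem-like, goblet-like, cycling-like and Paneth-like cells, on a linear axis, with exact conditional 95% intervals. WT is grey and the library labelled NFKO orange. Cluster 9 lies at 0.548 and 0.562, under the line at 1 that marks equal counts, and in 10 clusters the orange point lies to the right.

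Reg3a, the third member of that subgroup, was distributed over the classes like Reg3b. Enterocyte-like cells had 213 CPM in WT and 220 CPM in the library labelled NFKO, goblet-like cells 55.9 and 47.5 CPM, stem-like cells 22.6 and 26.0 CPM and cycling-like cells 14.6 and 21.2 CPM. Paneth-like cells had 3.64 and 4.46 CPM, and the endocrine classes at most 1.88 CPM. In the library labelled NFKO the intervals of stem-like and cycling-like cells overlapped. The gene was seen in 27.9% (22.4 to 33.9) and 30% of enterocyte-like cells at 2000 UMIs, with an upper bound of 35.4% for the second, and in 8.89% and 6.88% of goblet-like cells. Tuft-like cells had 2 of 82 and 0 of 153 such cells, where 0 allows a share of up to 1.96% with a UMI at this depth, and without thinning they had 4 Reg3a UMIs in each library.

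Over 22 clusters of at least 50 cells, with both libraries summed, log2(CPM + 1) of Reg3b had a Pearson correlation of 0.986 with Reg3g and 0.967 with Reg3a. Reg3a and Reg3g had 0.924, Reg1 had 0.687 with Reg3a and 0.644 with Reg3b, and Reg4 had between -0.14 and 0.12 with the others. The clusters share 2 libraries and differ in depth, so no p is given. Among 6082 other genes, those most like Reg3b were Cldn15, a tight junction claudin, at 0.95, the kinase Stk17b at 0.940 and Duox2, an oxidase that makes hydrogen peroxide, at 0.933. Reg3g was nearest to Cldn15, Stk17b and Tcim, at 0.942, 0.916 and 0.907. Reg3a was nearest to Stk17b, to Duoxa2, the maturation factor of Duox2, and to Ly6g2, at 0.955, 0.942 and 0.934.

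Reg1 was concentrated in enterocyte-like cells and then in stem-like cells. Enterocyte-like cells had 530 CPM (513 to 549) in WT and 1943 CPM (1911 to 1976) in the library labelled NFKO, and stem-like cells 62.1 CPM (58.2 to 66.1) and 293 CPM (283 to 304). These 2 classes held 75.6% and 21.6% of the Reg1 UMIs of WT and 77.9% and 17.4% of those of the other library. Every other class was at or under 3.10 CPM in WT and 14.1 CPM in the library labelled NFKO, and in WT their intervals overlapped from each to the next. A few cells carried the gene: 6 WT and 9 NFKO-labelled enterocyte-like cells held 50% of the class's Reg1 UMIs, and the median cell had none. At 2000 UMIs, 20.7% (15.9 to 26.3) and 27.7% (22.8 to 33.1) of enterocyte-like cells and 7.57% (4.86 to 11.1) and 21.6% (16.2 to 27.9) of stem-like cells had a Reg1 UMI. In goblet-like cells the share was 0.110% and 2.12%, at a median depth of 23901 and 23269.5 UMIs.

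Reg1 did not follow Reg3b from cell to cell: over enterocyte-like cells rho was 0.10 in WT and 0.06 under the NFKO label. It was higher in enterocyte-like cells with a UMI of Gata4, a transcription factor of proximal intestine, than in those without, at 729 against 127 CPM in WT and 2286 against 1253 CPM in the library labelled NFKO. Cells with a UMI of Fabp6, the ileal bile acid binding protein, had less Reg1 than those without, at 385 against 692 CPM and 1213 against 2465 CPM. Cells with Gata4 were deeper, with medians of 30225 and 33129 UMIs against 4680 and 4251, and the part of depth was not tested. Reg3b and Reg3g were split less, at 60854 against 72103 CPM for Reg3b by Gata4 in WT. The genes most like Reg1 over the clusters were Ces2e, a carboxylesterase, Apol10a, and Aadac, an esterase of the liver and gut, at 0.969, 0.961 and 0.959.

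Reg4 had its own pattern. Enterochromaffin-like cells had 3223 CPM (3158 to 3289) in WT and 5683 CPM (5627 to 5739) in the library labelled NFKO, and Paneth-like cells 653 CPM (643 to 664) and 564 CPM (552 to 576). Stem-like cells followed with 147 and 83.8 CPM, goblet-like cells with 62.0 and 81.9 CPM and cycling-like cells with 39.1 and 83.8 CPM, and in the library labelled NFKO the intervals of these neighbours overlapped. Single enterochromaffin-like cells gave up to 7.65% and 8.82% of their UMIs to Reg4, yet the median cell of that class had none. Paneth-like cells had it more evenly, with a median cell at 594 and 399 CPM, and 63.3% (57.1 to 69.1) and 52.7% (46.2 to 59.1) of them had a Reg4 UMI at 2000 UMIs. The share was 24.6% (19.4 to 30.4) and 40.6% (36.5 to 44.7) of enterochromaffin-like cells, against 3.66% and 3.92% of tuft-like cells.

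The 2 enterochromaffin-like clusters differed. Cluster 11, led by Cartpt, Cyp2f2 and Npy1r, had 15355 CPM in WT and 12241 CPM in the library labelled NFKO, while cluster 5, led by Pappa2 and Tac1, had 1732 and 2125 CPM. Paneth-like cells split likewise: cluster 16 had 1485 and 1286 CPM and the defensin-led cluster 9 had 461 and 403 CPM, so that the cluster with more Reg4 was the one with more Reg3b per Reg3g. The genes most like Reg4 over the clusters were Fmo2, Hbb-bs and Gm13373, at 0.728, 0.719 and 0.705.

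**Figure D4:**
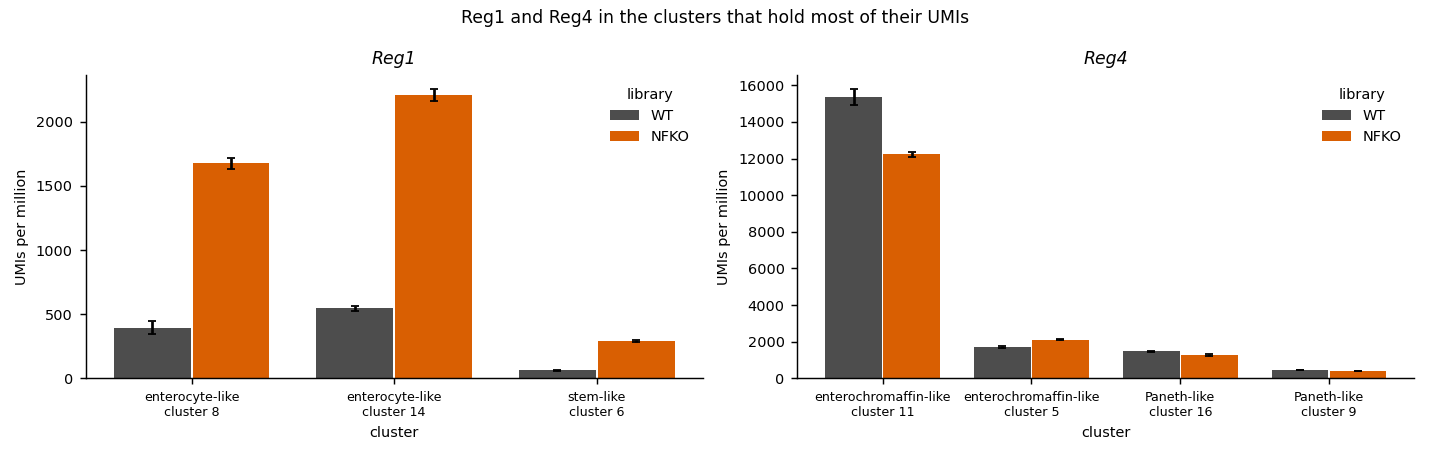
Reg1 (left) and Reg4 (right) in UMIs per 1000000, on linear axes from 0, in the named clusters that hold most of their UMIs. Bars are the WT (grey) and NFKO-labelled (orange) libraries with exact Poisson 95% intervals. Reg1 is higher in the library labelled NFKO in all 3 clusters, and Reg4 is higher in cluster 5 and lower in clusters 11, 16 and 9.

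NFKO was then set beside WT, gene by gene. A difference of at least 2-fold was counted, among genes that reached 50 CPM in either library and 100 UMIs in all. Over all kept cells 4 members met this minimum, and 1, Reg1, was at least 2-fold higher, where 2.77% of 2640 genes were; 0 were lower, where 1.06% of genes were. Reg3a, at 38.0 and 35.1 CPM, was under the minimum. The median log2 ratio of the 2640 genes was 0.20, so a gene at the middle of the table stood above equality over all cells.

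Over all cells Reg1 was at 56.7 and 161 CPM, a ratio of 2.83 (2.74 to 2.93), which became 5.24 among male-typed cells. In enterocyte-like cells its ratio was 3.66 (3.53 to 3.8), and it was the 1 member past 2-fold of 4 that met the minimum there, beside 6.47% of genes higher and 1.55% lower. Both enterocyte-like clusters showed it, cluster 8 with 396 and 1676 CPM and cluster 14 with 546 and 2207 CPM. Stem-like cells gave 4.72 (4.39 to 5.08), where 0.912% of genes were at least 2-fold higher and 0.641% lower, and the median stem-like cell was at 0 in WT and 72.9 CPM in the library labelled NFKO. Male-typed enterocyte-like cells had 572 CPM in WT and 2938 CPM in the library labelled NFKO, the latter from 24 cells of which 2 held 50% of the UMIs, while its 239 female-typed cells had 1832 CPM. In Paneth-like cells 3 cells held 70.8% of the 212 Reg1 UMIs of the library labelled NFKO, so the 6.95-fold difference there lies largely in them, and its 12 male-typed cells had 1 Reg1 UMI.

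The enterocyte-like cells of the libraries were not alike in other genes. The summed level of 9 of 9 enterocyte markers was 3639 CPM in WT and 23019 CPM in the library labelled NFKO, and it was 201 and 450 CPM in stem-like cells. Fabp1, a fatty acid binding protein, had a ratio of 8.50 in the class, but 5.89 within cluster 8 and 3.56 within cluster 14. Cluster 8, where it is higher, held 122 of 253 WT and 240 of 353 NFKO-labelled cells. Median depth was 3928.5 and 5091 UMIs in cluster 8, against 38102 and 32172 in cluster 14. Class levels are sums of UMIs, so the WT level of the class rests mostly on cluster 14. The summed level of 8 of 8 goblet markers in enterocyte-like cells was 20154 and 11136 CPM, and in stem-like cells 13190 and 23218 CPM. Median mitochondrial content was 12.2% and 8.16%. Of the 9 pancreatic acinar markers 1 was seen in enterocyte-like cells, with 2 UMIs in WT and 1 under the NFKO label, and the other 8 were at 0. The part of enterocyte and goblet markers in the Reg1 and Reg3 differences was not tested.

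Reg3g was lower in the library labelled NFKO in the 5 classes with its highest levels, with ratios from 0.492 to 0.925. Over all cells it was at 9923 and 6224 CPM, a ratio of 0.627 (0.625 to 0.629). Goblet-like cells had a ratio of 0.576 (0.573 to 0.579), and male-typed goblet-like cells had 13986 CPM in WT and 9463 CPM in the library labelled NFKO. Within goblet-like clusters 0, 3 and 10 the ratio was 0.529, 0.591 and 0.715, and within cluster 1 it was 0.944. Cluster 3 had 25 NFKO-labelled cells and cluster 1 had 86 WT cells. The summed level of 8 of 8 goblet markers in the class was 107660 and 177042 CPM, and its part in these ratios was not tested. No member was past 2-fold in goblet-like cells, where 1.59% of genes were higher and 1% lower, nor in Paneth-like cells, where 2.14% and 1.6% were. In cycling-like cells Reg3g was past 2-fold, with a ratio of 0.492 (0.484 to 0.501), where 1.04% of genes were lower and 0.736% higher, but male-typed cycling-like cells had 6922 and 3842 CPM, a ratio of 0.555 (0.535 to 0.575), short of 2-fold. In Paneth-like cells the ratio was 0.902, and it turned to 1.34 among male-typed cells, of which the library labelled NFKO had 12. In tuft-like and endocrine progenitor-like cells Reg3b and Reg3g met the minimum and 0 of 2 passed 2-fold, where 4.93% and 0.603% of genes were higher and 3.29% and 0.746% lower. Enterocyte-like cells had 0.925 (0.919 to 0.931), and the direction there turned to 1.12 when each cell had the same weight.

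Of the same 5 classes Reg3b was lower in goblet-like, stem-like and cycling-like cells and higher in enterocyte-like and Paneth-like cells. In Paneth-like cells its log2 ratio of 0.12 was under the median of the genes tested there, 0.17, and male-typed cells had 5170 and 13812 CPM, with 2 of the 12 cells of the library labelled NFKO holding 50% of the UMIs. Its ratio was 0.812 (0.810 to 0.813) over all cells, from 16469 and 13365 CPM, and became 1.01 among male-typed cells. In goblet-like cells it was 0.743 (0.740 to 0.746), or 0.899 among male-typed cells, and in stem-like cells 0.974 (0.968 to 0.980). Goblet-like cells of the libraries lay mostly in different clusters, 584 of 912 in WT in cluster 3 and 41.3% and 44.7% of the library labelled NFKO in clusters 0 and 1. Within clusters 0 and 3 the ratio was 0.692 and 0.589, the latter with 25 NFKO-labelled cells. In cluster 1 it was 1.79, from 8446 CPM in 86 WT cells and 15129 CPM in 798 NFKO-labelled cells. Cluster 3 was led by Edn2, Areg and heat shock genes.

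The 2 enterocyte-like clusters had opposite directions for the Reg3 genes. In cluster 8, with shallow cells led by Slc5a12, Enpp7 and Apoa4, Reg3b was at 34091 CPM in WT and 81881 CPM under the NFKO label, a ratio of 2.40 (2.37 to 2.43). In cluster 14, led by Ms4a18 and Car4, it was at 68079 and 63551 CPM, a ratio of 0.933 (0.929 to 0.938). Reg3g had 1.71 and 0.750 and Reg3a 1.80 and 0.634 in the same clusters. The class ratio of Reg3b, 1.13 (1.12 to 1.13), adds these together in unequal parts. Cluster 8 gave 22408 of 410519 Reg3b UMIs of the class in WT and 291059 of 520546 under the NFKO label. The class ratio turned to 0.991 among male-typed cells and to 0.949 with classes set by the marker scores of single cells. For Reg3a the class ratio was 1.03 (0.957 to 1.11), which does not part the libraries, and over all cells 0.925 (0.882 to 0.970), which became 1.17 among male-typed cells.

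**Figure D5:**
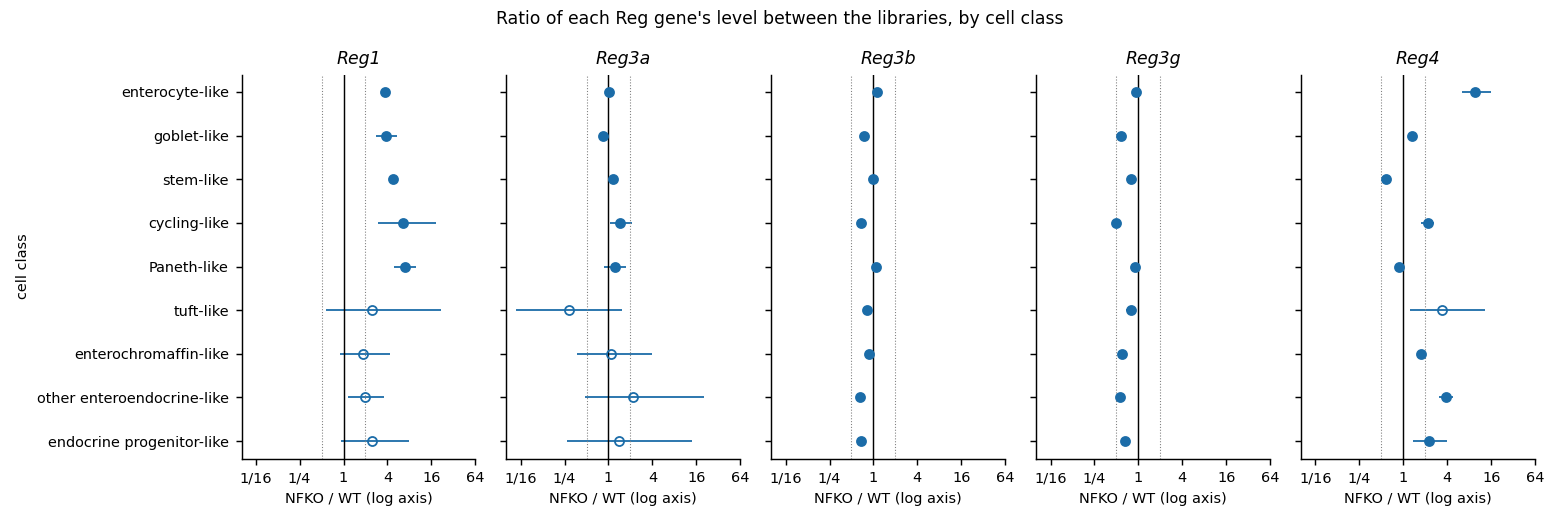
Ratio of each Reg gene's level, the library labelled NFKO over WT, by cell class on a log axis, with exact conditional 95% intervals. Open points rest on fewer than 100 UMIs over both libraries, the solid line is equality and dotted lines mark 2-fold. Reg1 lies right of the line in every class and Reg3g left of it, with Reg1 intervals that reach the line in 3 classes.

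Reg4 was at 343 and 486 CPM over all cells, a ratio of 1.42 (1.40 to 1.44). In enterochromaffin-like cells the ratio was 1.76 (1.72 to 1.80), and no member was past 2-fold there, beside 2.2% of genes higher and 0.891% lower. This value holds a shift between clusters: cluster 11, where Reg4 is high, was 33 of 252 enterochromaffin-like cells in WT and 264 of 605 in the library labelled NFKO. Within cluster 11 the ratio was 0.797 (0.773 to 0.822) and within cluster 5 it was 1.23 (1.18 to 1.27). In the class 10 WT and 29 NFKO-labelled cells held 50% of the Reg4 UMIs. Male-typed cells alone had 2901 and 9525 CPM, a ratio of 3.28, and 8 of 205 and 2 of 38 of them held 50% of these UMIs.

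Outside enterochromaffin-like and Paneth-like cells Reg4 often rested on few cells. In other enteroendocrine-like cells it was at 16.4 and 63.1 CPM, the 1 member past 2-fold where 0.914% of genes were higher and 1.43% lower, and 3 of 907 cells held 69.5% of the UMIs of the library labelled NFKO. Male-typed cells of that class had 17.8 and 16.8 CPM, a ratio of 0.945 (0.508 to 1.64), so the difference was not seen in them. In enterocyte-like cells, with 22 and 241 UMIs, 1 cell of the library labelled NFKO held at least 50% of them. Cycling-like cells had a ratio of 2.14 (1.75 to 2.64), also past 2-fold, but male-typed cycling-like cells had 40.8 and 41.0 CPM, a ratio of 1.00 (0.674 to 1.47). Stem-like cells had 0.570 (0.527 to 0.616), where 5 and 4 cells held 50% of the UMIs and male-typed cells had 139 and 38.5 CPM, a ratio of 0.276. Paneth-like cells, in which Reg4 was spread more evenly, had 0.863 (0.840 to 0.887), with 0.866 in cluster 16 and 0.875 in cluster 9. Male-typed Paneth-like cells, 12 of them under the NFKO label, had a ratio of 0.669 (0.588 to 0.759).

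Genes that regulate or accompany Reg3 expression were counted from lists, with at least 100 UMIs over both libraries as the minimum. At this minimum 4.65% of all genes in enterocyte-like cells were at least 2-fold higher and 1.88% lower, 2.77% and 1.23% in goblet-like, 1.09% and 1.22% in stem-like and 2.75% and 0.766% in enterochromaffin-like cells. In enterocyte-like cells 8 of 10 genes of IL-22 and STAT3 signalling, with the Reg receptor Extl3 on the list, met it. None of the 8 was at least 2-fold higher and 1 was lower: Socs3, the feedback inhibitor of STAT3 signalling, at 80.5 CPM in WT and 35.2 CPM in the library labelled NFKO. Stat3 itself was at 65.3 and 66.4 CPM. The list's median log2 ratio was -0.11. Socs3 was lower too in stem-like cells, at 49.0 and 23.8 CPM, and at 105 and 58.8 CPM in goblet-like cells, short of 2-fold.

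Of 14 genes of inducible epithelial defence 9 met the minimum in enterocyte-like cells. Nos2, the inducible nitric oxide synthase, was higher, at 8.81 and 47.3 CPM. Duox2 was lower, at 116 and 46.3 CPM, as were Lcn2, which binds bacterial siderophores, at 29.4 and 5.02 CPM, the fucosyltransferase Fut2 at 58.4 and 13.1 CPM and Retnlb at 12.7 and 3.77 CPM. The median log2 ratio of the 9 was -0.84. Goblet-like cells had 3 of 9 higher and 0 lower, the 3 being Saa1 at 4.66 and 31.3 CPM, Nos2 at 0.680 and 2.89 CPM and Ido1 at 8.31 and 156 CPM. Ido1 leads cluster 1, in which 44.7% of NFKO-labelled and 9.43% of WT goblet-like cells lay.

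Of the constitutive antimicrobial secretory genes 9 met the minimum in enterocyte-like cells, with 4 higher and 1 lower. They included the Paneth genes Lyz1, at 77.9 and 209 CPM, and Defa30, at 161 and 426 CPM, and the lower gene was Mmp7, which activates defensins, at 60.6 and 28.7 CPM. The summed level of 9 of 9 Paneth markers in enterocyte-like cells was 1901 and 2660 CPM. In enterochromaffin-like cells 0 of 9 genes of the IL-22 and STAT3 list were past 2-fold in either direction, with a median log2 ratio of -0.04.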

How the data were processed

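Single-cell RNA-Seq counts of 2 libraries were analysed. The deposited values are raw UMI counts per gene and barcode; per the submitters' processing notes they were made with Cell Ranger 5.0.1 on mm10, and the authors name Seurat for clustering. The annotation is not given in the sources used here. No deposited cell annotation was used.

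A barcode was kept from 500 genes and 1000 UMIs upward if no more than 25% of its UMIs were mitochondrial. Scrublet, run in scanpy 1.11.5, marked 2 and 0 cells by its automatic threshold, which had not worked, so the highest scores were removed at 0.8% per 1000 barcodes, 126 and 340 cells. Joint clustering used Seurat 5.3.0 and R 4.3.3 (2000 variable genes, 30 components, 20 neighbours, resolution 0.8) without 17 genes, among them 7 Reg genes. A cluster was named where at least 3 markers of a class were 2-fold higher than in other cells and seen in 10% of its cells. A cluster of low UMI count also needed 2 markers among its 10 leading genes. This named 21 of 23 clusters; clusters 15 and 17 stayed unnamed. Thinning to 2000 UMIs left out 32 and 337 cells.

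With 1 library per group no test was made. Sums carry exact Poisson, shares exact binomial (Clopper-Pearson) and ratios exact conditional binomial 95% intervals, computed in scipy 1.17.1, and the limit of a count of 0 is 3 counts. On simulated counts of 2640 genes for all kept cells, 94.2% of intervals held the true ratio. The intervals leave out the spread between cells, mice and libraries, so this share does not show how they do on the real counts. The members, markers and gene lists were chosen with earlier results of these data known. Named besides the members were the 3 genes most alike over clusters and list genes past 2-fold; Stat3, and Socs3 in goblet-like cells, were named outside this rule. Pla2g2a was not among the gene names.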

Additional observations from a re-analysis of the deposited data

How the results depend on the processing

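Of the recomputed ratios of the library labelled NFKO over WT, 24 moved by less than the counting interval and 51 by more, and the 10 share ratios by less. Over all kept cells, for Reg1, Reg3a, Reg3b, Reg3g and Reg4 in turn, median-of-ratios size factors gave 2.46, 0.805, 0.706, 0.546 and 1.23, and male-typed cells alone gave 5.24, 1.17, 1.01, 0.731 and 1.63. For Reg1, Reg3b, Reg3g and Reg4, equal weight per cell gave 3.03, 0.858, 0.678 and 1.81, and the stricter cell filter 3.07, 0.809, 0.62 and 1.36. Without the 3 top cells of each library Reg1 gave 3.18 and Reg3b 0.814, with every deposited barcode Reg3b gave 0.839 and Reg3g 0.644, and with doublets kept Reg4 gave 1.36.

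In enterocyte-like cells Reg1 gave 3.94 with equal weight, 5.13 among male-typed cells, 4.43 without the 3 top cells and 2.58 with classes from marker scores. Reg3a gave 1.13 among male-typed cells and 0.803 with marker scores. Reg3b gave 1.1 with median-of-ratios factors, 1.37 with equal weight, 1.04 with the stricter filter, 0.991 among male-typed cells, 0.949 with marker scores, 1.13 with the Reg genes in the clustering and 1.11 with another seed. Reg3g gave 0.905, 1.12, 0.863, 0.787, 0.77, 0.932 and 0.904 under the same settings in turn, and 0.932 without the 3 top cells. In enterochromaffin-like cells Reg4 gave 1.68 with median-of-ratios factors, 1.61 with equal weight, 3.28 among male-typed cells, 1.92 without the 3 top cells, 1.72 with marker scores, 1.67 with the Reg genes in the clustering and 1.66 with another seed. The cause of these shifts was not tested. Male-typed ratios in other classes were chosen after seeing the data. They gave 0.945 for Reg4 in other enteroendocrine-like cells, 1 for Reg4 in cycling-like cells and 0.555 for Reg3g in cycling-like cells, none of them past 2-fold, and 5.02 for Reg1 in stem-like cells.

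With a minimum of 20 UMIs alone, the percent of genes at least 2-fold higher and lower became 8.73 and 2.75 over all cells, 5.35 and 2.47 in goblet-like, 5.16 and 3.31 in Paneth-like, 2.45 and 3.05 in stem-like, 3.92 and 2.34 in cycling-like, 5.26 and 2.26 in enterochromaffin-like, 3.4 and 1.94 in endocrine progenitor-like and 3.18 and 4.02 in other enteroendocrine-like cells. The lower share became 3.99 in enterocyte-like and 6.56 in tuft-like cells.

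No paired analysis was possible because each group has 1 library, and leaving out a replicate would leave no sample. Mice, sex, library and label cannot be told apart. The male-typed values compare cells of 1 typed sex, but mice, library and label stay joined in them. A cell's typed sex can rest on 1 UMI. Depth limits Reg1 and Reg3a in the tuft-like and endocrine classes, where they had at most 80 UMIs per class and library.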

Other observations

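Reg4 was also seen outside the classes named above. Unnamed cluster 15, whose cells were shallow, had 71.8 CPM (28.9 to 148) in WT and 419 CPM (366 to 477) in the library labelled NFKO, from 7 and 224 UMIs. Within a named class, cluster 7 of the other enteroendocrine-like cells had 26.6 and 257 CPM. In that class 3 cells held 69.5% of the Reg4 UMIs of the library labelled NFKO, and the ratio among male-typed cells was 0.945.

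Genes of position along the gut differed beside Reg1. Pdx1, a transcription factor of duodenum and pancreas, was at 2.67 CPM in WT and 12.3 CPM in the library labelled NFKO in enterocyte-like cells, and at 0.632 and 5.08 CPM in goblet-like and 8.26 and 21.4 CPM in enterochromaffin-like cells. Gata4, the other proximal factor, was at 41.5 and 42.8 CPM in enterocyte-like cells. Of the distal genes, Slc10a2, the ileal bile acid transporter, was at 31.8 and 80.5 CPM in enterocyte-like cells, but at 160 and 156 CPM within cluster 8 and 17 and 6.37 CPM within cluster 14, which the libraries fill unequally. Fabp6 was at 12110 and 6550 CPM in cluster 8 and 3535 and 1731 CPM in cluster 14, at 26.9 and 10.4 CPM in goblet-like and at 21.7 and 9.13 CPM in enterochromaffin-like cells. Whether the libraries sampled the regions of the gut alike was not tested.

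In goblet-like cells Zg16, a lectin of the mucus, was at 23261 and 67182 CPM, and Mptx1, a pentraxin, at 52.1 and 2694 CPM. Neither has the direction of Reg3g in those cells, and cluster 0, led by Mptx1, held 18.3% of WT and 41.3% of NFKO-labelled goblet-like cells.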
